A study of Homo sapiens with 12 samples.

Results

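The 9 genes described here are regulators and markers of the mesenchymal state of neuroblastoma cells, namely CD44, FN1, SNAI2, TWIST1, PRRX1, FOSL1, FOSL2, YAP1 and WWTR1. They were found by symbol in the probe annotation of the Illumina HumanHT-12 v4 bead array, which gave 15 probes of the 47323 on the array, for 9 of the 20046 genes with a probe of a single symbol. The samples were 12 RNA samples labelled SK-N-SH, a human neuroblastoma line that the labels trace to bone marrow, in 4 groups of 3 arrays. DoxR-v cells were selected for growth in stepwise higher doxorubicin, an anthracycline that poisons topoisomerase, and were also given the histone deacetylase inhibitor vorinostat (SAHA) intermittently, at its IC25, whenever the doxorubicin dose was raised. DoxR cells went through the same selection without vorinostat. WT-v cells were parental cells given vorinostat alone on the same schedule, and WT cells were the untreated parental line. Each group is 1 line, and nothing in the sources used here states that the 3 arrays of a group came from separate cultures, so the p-values measure only the spread between these arrays, and a difference between lines and the action of a drug cannot be told apart.

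Neuroblastoma cells are known to occupy an adrenergic state, with neuronal and catecholamine genes on, or a mesenchymal state, in which neural crest and stromal genes are on and the cells resemble migrating crest or fibroblasts. SNAI2, TWIST1 and PRRX1 encode transcription factors that drive or mark epithelial to mesenchymal transition, the Fos-family proteins encoded by FOSL1 and FOSL2 pair with Jun proteins to form AP-1, and YAP1 and WWTR1 (TAZ) encode the co-activators that the Hippo kinases hold out of the nucleus and that act through TEAD factors. CD44, a surface receptor for hyaluronan, and FN1, which encodes the matrix glycoprotein fibronectin, are surface and matrix markers of mesenchymal cells.

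CD44 was high in both resistant lines, lower in WT and not detected in WT-v. SNAI2, which encodes the E-box repressor SLUG, was highest in DoxR, intermediate in WT-v and low in WT and DoxR-v. TWIST1, which encodes a basic helix-loop-helix factor, was highest in WT-v and lowest in DoxR, and both parental groups lay above both resistant groups. FOSL2 was detected at a low level on all arrays and was called in no comparison. FN1, FOSL1, YAP1 and WWTR1 were detected on no array. CD44, SNAI2 and TWIST1 thus each had their own order of the 4 groups.

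The 250 bases before the annotated start were available for 6 of the 9 genes from RefSeq (GRCh38.p14), and 3 are shown because they stand for the 3 kinds of pattern seen, a gene that differed between lines (CD44), a gene detected at a similar level in all of them (FOSL2) and a gene detected in none (YAP1). Each was searched on both strands for the AP-1 letters TGANTCA, the TEAD letters GGAATG and the E-box letters CANNTG, which SNAI2 and TWIST1 proteins can bind, and matches are in capitals. The CD44 window held none of these letters, the FOSL2 window held 1 E-box match, and the YAP1 window held 1 TEAD match and 1 E-box match.
CD44 (chr11:35138921-35139170, plus strand): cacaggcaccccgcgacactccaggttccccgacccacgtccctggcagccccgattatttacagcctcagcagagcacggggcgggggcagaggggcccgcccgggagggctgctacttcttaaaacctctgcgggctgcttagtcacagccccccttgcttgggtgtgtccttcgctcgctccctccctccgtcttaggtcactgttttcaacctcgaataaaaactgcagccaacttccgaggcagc
FOSL2 (chr2:28392608-28392857, plus strand): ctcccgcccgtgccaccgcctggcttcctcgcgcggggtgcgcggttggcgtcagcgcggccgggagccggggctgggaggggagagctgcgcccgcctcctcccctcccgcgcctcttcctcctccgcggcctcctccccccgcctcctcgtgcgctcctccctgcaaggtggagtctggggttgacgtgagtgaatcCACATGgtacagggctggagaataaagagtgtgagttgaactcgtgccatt
YAP1 (chr11:102110197-102110446, plus strand): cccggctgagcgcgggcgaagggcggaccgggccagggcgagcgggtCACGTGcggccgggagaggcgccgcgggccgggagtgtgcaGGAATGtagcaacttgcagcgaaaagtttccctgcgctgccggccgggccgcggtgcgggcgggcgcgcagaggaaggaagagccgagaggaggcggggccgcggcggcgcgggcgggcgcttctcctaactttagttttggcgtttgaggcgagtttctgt
No window of the same length among the members held AP-1 letters, which occurred in 6.57% of 35116 promoters, while TEAD letters occurred in 11.9% and E-box letters in 61.8%. The FN1 and PRRX1 windows held none of the 3 motifs, and of the WWTR1 windows only 1 held a match, with 2 E-boxes. A match shows that the letters occur in the window and not that a factor binds there.

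Each array detected between 14969 and 17220 probes (detection p below 0.01), and the deposited signals spanned 62 to 18897. The correlation of any pair of arrays was 0.982 to 0.992 within groups and 0.936 to 0.971 between groups. Of 16 probed markers of adrenergic neuroblasts, 14 in DoxR-v, 15 in DoxR, 14 in WT-v and 15 in WT were detected on all 3 arrays. Most markers of the labelled cell type were thus present in each group. The exceptions were TH in DoxR, INSM1 in DoxR-v and WT-v, and SOX11 in DoxR-v, WT-v and WT. Of 8 markers of mesenchymal (S-type) cells, 4 in DoxR-v, 5 in DoxR, 4 in WT-v and 4 in WT were detected on all 3 arrays. The summed normalized intensity of those 8 was 4981 to 6510 in DoxR-v, 11086 to 12248 in DoxR, 6037 to 6797 in WT-v and 2564 to 2788 in WT. The sum is of unlogged intensities, so the brightest genes weigh most in it. VIM averaged 11.27 in DoxR-v, 13.1 in DoxR, 11.66 in WT-v and 9.05 in WT on the log2 scale. TWIST1 averaged 10.15, 9.25, 11.37 and 10.79 in the same order. FN1, PRRX1 and COL1A1 were detected on all 3 arrays of no group. The list includes 5 of the 9 genes described here. Of 4 Schwann or glial markers, 1 in DoxR-v (ERBB3), 1 in DoxR (ERBB3), 0 in WT-v and 0 in WT were so detected, and S100B, SOX10 and MBP in no group. Of 5 epithelial markers, 2 in DoxR-v (EPCAM and KRT19), 0 in DoxR, 0 in WT-v and 1 in WT (KRT19) were, and CDH1 in no group. Of 3 probed blood cell markers, 0 in DoxR-v, 0 in DoxR, 1 in WT-v (CD14) and 1 in WT (CD14) were, and PTPRC and CD3E in no group, with a summed normalized intensity of 79 to 114 in DoxR-v, 83 to 98 in DoxR, 91 to 114 in WT-v and 130 to 188 in WT. The part of other cell types in the results was not tested.

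CD44 had 3 probes, annotated to different transcripts of the gene, which lies at chromosome 11, 35139171 to 35232402. Levels are given as log2 of the background-corrected and quantile-normalized intensity, on which the lowest detected probe of an array stood between 5.13 and 5.55. The brightest probe, ILMN_1803429, read 11.04, 10.69 and 10.52 on the DoxR-v arrays, 10.57, 10.26 and 10.33 on the DoxR arrays, 4.37, 4.31 and 4.46 on the WT-v arrays, and 7.29, 7.24 and 7.28 on the WT arrays. All resistant arrays lay above all WT arrays, all WT arrays lay above all WT-v arrays, and the resistant groups overlapped. No WT-v array detected this probe. On the scale of the deposited signal, the DoxR-v arrays averaged 2016 and the DoxR arrays 1340, against 88.2 for WT-v and 188 for WT.

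Against WT, CD44 was 11.2-fold higher in DoxR-v (log2 difference 3.48, SE 0.14, adjusted p = 3.39e-09, limma) and 8.68-fold higher in DoxR (3.12, SE 0.14, adjusted p = 3.3e-09). In WT-v it was at least 4.14-fold lower than in WT (adjusted p = 1.73e-08, limma). For such a bound, each array of the undetected group was set to its detection limit, which is its lowest detected level, unless the probe itself read higher there. The bound takes the mean of the other group and makes no allowance for the spread between arrays. A small bound is therefore weak evidence of a difference. Against WT-v, the bounds were at least 46.2-fold higher in DoxR-v and at least 35.9-fold higher in DoxR. In these bulk samples, fewer cells with a transcript and less of it per cell cannot be told apart. DoxR-v and DoxR, the neighbours at the top, were not called apart (log2 difference 0.36, 95% interval 0.05 to 0.67, limma adjusted p = 0.0678). The vorinostat difference of CD44 in resistant cells less that in parental cells was 3.25 (SE 0.20, adjusted p = 9.22e-08), a value that rests on a WT-v level below detection.

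The second CD44 probe, ILMN_2348788, was detected on all arrays of both resistant lines and on no parental array. It read 8.27, 7.88 and 7.67 in DoxR-v, 7.64, 7.31 and 7.30 in DoxR, 4.45, 4.55 and 4.50 in WT-v, and 4.67, 4.38 and 4.67 in WT. Resistant arrays lay far above all parental arrays, and the DoxR-v arrays just above the DoxR arrays. The rise was at least 5.78-fold in DoxR-v and at least 4.02-fold in DoxR against WT (limma adjusted p = 1.21e-08 and 2.55e-08). DoxR-v and DoxR differed by 0.53 (95% interval 0.17 to 0.88), with a fold of 1.44 that missed the 1.5-fold threshold, although it passed without DoxR replicate 1 (0.64), without DoxR-v replicate 3 (0.66), with array weights (0.59) and under median scaling (0.68). Where the brightest probe separated WT from WT-v, this probe could not, since both stood below detection. The remaining CD44 probe, ILMN_1778625, was detected on no array, with levels of 4.32 to 4.85.

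**Figure D1:**
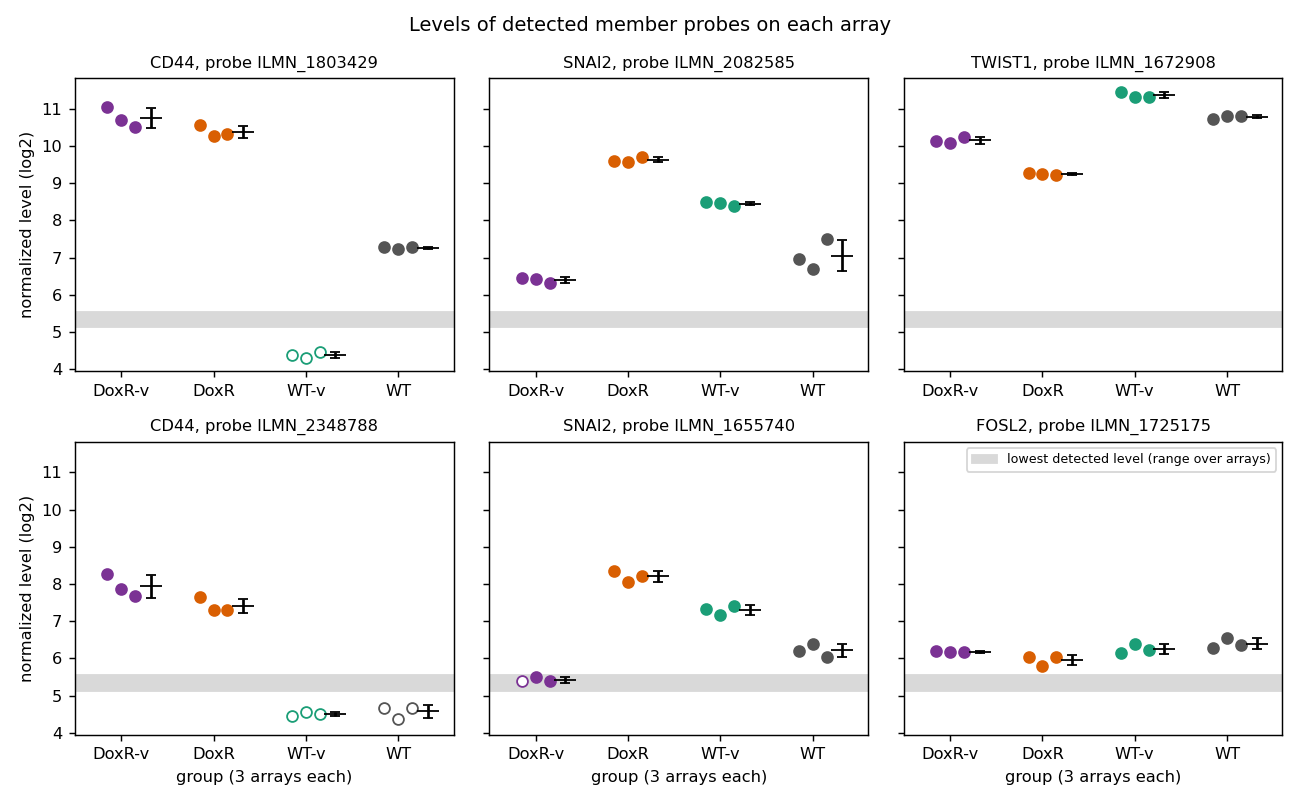
Normalized level (log2, vertical axis) of the 6 member probes with the most detected arrays, for the DoxR-v, DoxR, WT-v and WT arrays (horizontal axis, 3 points each); filled points were detected, open points were not, black bars give mean ± SD and the grey band spans the lowest detected level of the arrays (5.13 to 5.55). CD44 stands high in both resistant groups, SNAI2 highest in DoxR, TWIST1 highest in WT-v, and FOSL2 lies between 5.79 and 6.55 throughout.

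SNAI2 had 2 probes, both detected, which ordered the groups alike. The brighter probe, ILMN_2082585, read 6.46, 6.43 and 6.32 in DoxR-v, 9.61, 9.57 and 9.70 in DoxR, 8.50, 8.46 and 8.40 in WT-v, and 6.96, 6.70 and 7.50 in WT. The 4 groups did not overlap, and WT spread the most, with replicate 3 above the other WT arrays. SNAI2 was 9.33-fold lower in DoxR-v than in DoxR (log2 difference -3.22, SE 0.17, limma adjusted p = 1.15e-08), so the lines selected with the same drug lay at opposite ends of the order. Against WT it was 5.95-fold higher in DoxR (2.57, SE 0.17, adjusted p = 9.56e-08) and 2.64-fold higher in WT-v (1.40, SE 0.17, adjusted p = 5.81e-05). DoxR was 2.26-fold higher than WT-v, and DoxR-v was 4.13-fold lower than WT-v.

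Vorinostat went with less SNAI2 among resistant cells and with more SNAI2 among parental cells. The difference between those contrasts was -4.62 on the log2 scale (95% interval -5.14 to -4.11, limma adjusted p = 1.54e-08), and -3.87 on the other probe (adjusted p = 8.82e-09). That probe, ILMN_1655740, read 5.38, 5.51 and 5.38 in DoxR-v, 8.34, 8.06 and 8.21 in DoxR, 7.34, 7.16 and 7.41 in WT-v, and 6.21, 6.39 and 6.05 in WT, and DoxR-v replicate 1 did not detect it. The neighbours at the low end were the closest, with SNAI2 1.57-fold lower in DoxR-v than in WT on the brighter probe (-0.65, SE 0.17, adjusted p = 0.011) and 1.73-fold lower on the other (-0.79). The call on the brighter probe ended in 6 of the alternatives, which were no background correction (-0.39), the authors' normalized values (-0.24), an offset of 50 (-0.50), median scaling of the arrays (-0.19), array weights (-0.55) and leaving out WT replicate 3 (-0.42). That on the other probe ended in the first 4 of these (-0.34, -0.18, -0.50 and -0.43).

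TWIST1 had 1 probe, ILMN_1672908, bright on all arrays, and lies at chromosome 7, 19113047 to 19117636. It read 10.14, 10.07 and 10.24 in DoxR-v, 9.28, 9.26 and 9.22 in DoxR, 11.46, 11.33 and 11.32 in WT-v, and 10.74, 10.80 and 10.82 in WT. No groups overlapped, and both parental groups stood above both resistant groups. TWIST1 was 2.90-fold lower in DoxR than in WT (log2 difference -1.53, SE 0.11, limma adjusted p = 2.26e-07) and 1.55-fold lower in DoxR-v than in WT (-0.63, SE 0.11, adjusted p = 0.000799). The call for DoxR-v ended under median scaling (-0.34).

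Between the resistant lines TWIST1 was 1.87-fold higher in DoxR-v than in DoxR (0.90, SE 0.11, limma adjusted p = 3.13e-05). Between the parental lines WT-v exceeded WT by 0.58 (95% interval 0.35 to 0.82, adjusted p = 0.00134), which lies just under the fold threshold of 0.585 on this scale. That comparison passed without WT replicate 2 (0.59), WT replicate 3 (0.60), WT-v replicate 2 (0.60) or WT-v replicate 3 (0.61), and also under median scaling (0.77) and with array weights (0.62). The vorinostat difference of TWIST1 was not called different between resistant and parental cells (0.32, 95% interval -0.02 to 0.65, adjusted p = 0.13). Against WT-v, TWIST1 was 2.33-fold lower in DoxR-v and 4.34-fold lower in DoxR. TWIST1 and SNAI2 thus differed in order, since DoxR had the highest SNAI2 and the lowest TWIST1.

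**Figure D2:**
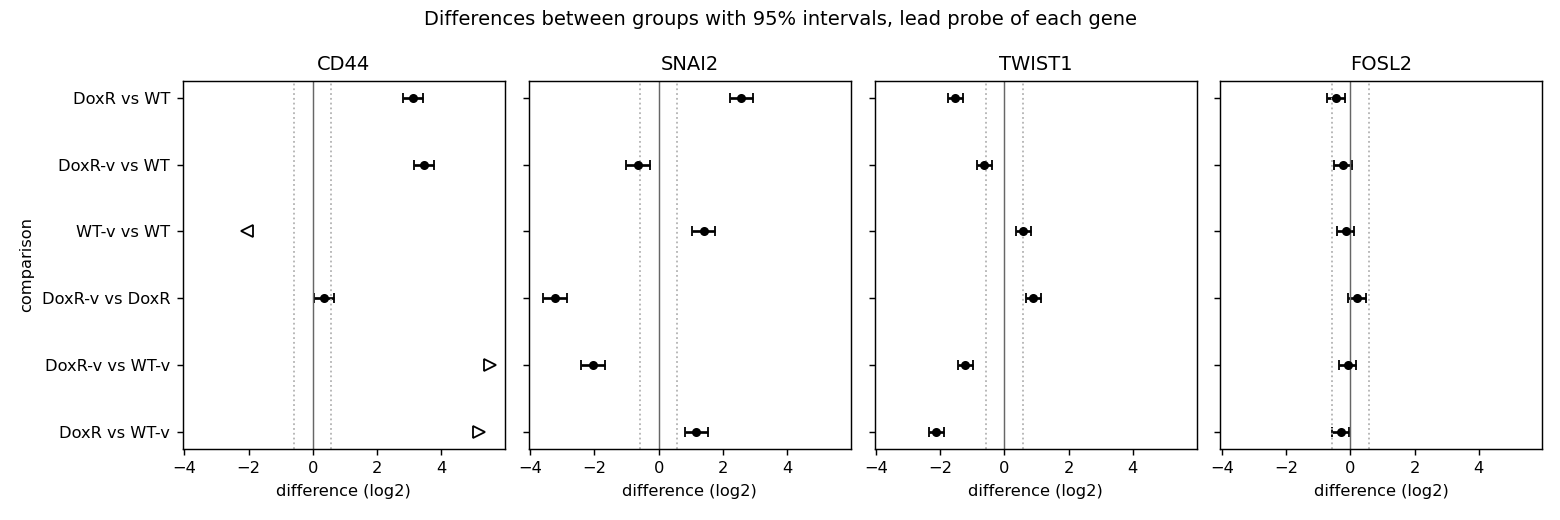
Difference between groups (log2, horizontal axis, the group named first minus the other) for the brightest tested probe of CD44, SNAI2, TWIST1 and FOSL2 in 6 comparisons (vertical axis); points are limma estimates, bars are 95% intervals, open triangles are bounds where no WT-v array detected the CD44 probe, and dotted lines mark a 1.5-fold difference. CD44 exceeds WT by 3.12 in DoxR and 3.48 in DoxR-v, SNAI2 differs by -3.22 between DoxR-v and DoxR, and all FOSL2 estimates lie inside the dotted lines.

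PRRX1, a homeobox factor placed at the core of the mesenchymal state, was scarcely seen. Its probe ILMN_1739496 was detected on 1 array, WT replicate 1, at a level of 5.56, while the other WT arrays read 4.35 and 4.44 and all arrays of DoxR-v, DoxR and WT-v lay between 4.31 and 4.56. PRRX1 was called in no comparison. The difference of WT-v from WT was -0.44 (95% interval -0.96 to 0.09, limma adjusted p = 0.187), and it passed only with array weights (-0.60) or without WT replicate 2 (-0.66) or WT replicate 3 (-0.61). The other PRRX1 probe was detected on no array, at levels of 4.44 to 5.18.

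FOSL2, at chromosome 2, 28392858 to 28417317, was detected on all 12 arrays, unlike FOSL1. It read 6.19, 6.16 and 6.16 in DoxR-v, 6.04, 5.79 and 6.03 in DoxR, 6.14, 6.40 and 6.23 in WT-v, and 6.28, 6.55 and 6.37 in WT. These levels were close to the limit of detection, with signals of 115% to 149% of the lowest detected signal of the same array. The largest difference, that of DoxR from WT, was -0.45 (95% interval -0.72 to -0.17, limma adjusted p = 0.0134), a fold of 1.36 that missed the threshold. In order of level the groups ran WT, WT-v, DoxR-v and DoxR, and no neighbours were called apart (0.22 for DoxR-v against DoxR, interval -0.06 to 0.50; -0.08 for DoxR-v against WT-v, interval -0.36 to 0.19; -0.14 for WT-v against WT, interval -0.42 to 0.13). FOSL1 was detected on no array, at levels of 4.44 to 5.37, and its highest array, WT replicate 3, missed the limit with a detection p of 0.0117.

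YAP1 and WWTR1 each had 1 probe, and neither was detected on any array. YAP1 read 4.35, 4.25 and 4.32 in DoxR-v, 4.77, 4.70 and 5.01 in DoxR, 4.53, 4.41 and 4.55 in WT-v, and 4.93, 4.44 and 4.29 in WT. The DoxR arrays lay above the DoxR-v and WT-v arrays, but all were below detection, and in a fit without the filter on detection DoxR-v differed from DoxR by -0.52 (SE 0.15, limma adjusted p = 0.0304), under the fold threshold. WWTR1 ran from 4.25 to 4.54 with no such order. The 3 FN1 probes, of a gene at chromosome 2, 215360865 to 215436068, were not detected either and lay between 4.29 and 4.74.

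In all, 8 of the 15 probes were detected on no array, against 54.3% of all probes on the array. Their signals, 71.1 to 109.7, stood beside a lowest detected signal of 99.8 to 127.2 per array. With no filter, none of these 8 probes was called in any comparison by limma (1 difference, that of YAP1 above, had an adjusted p below 0.1). A probe below detection gives only an upper limit on its transcript as this probe sees it, and does not show that the gene was off.

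**Figure D3:**
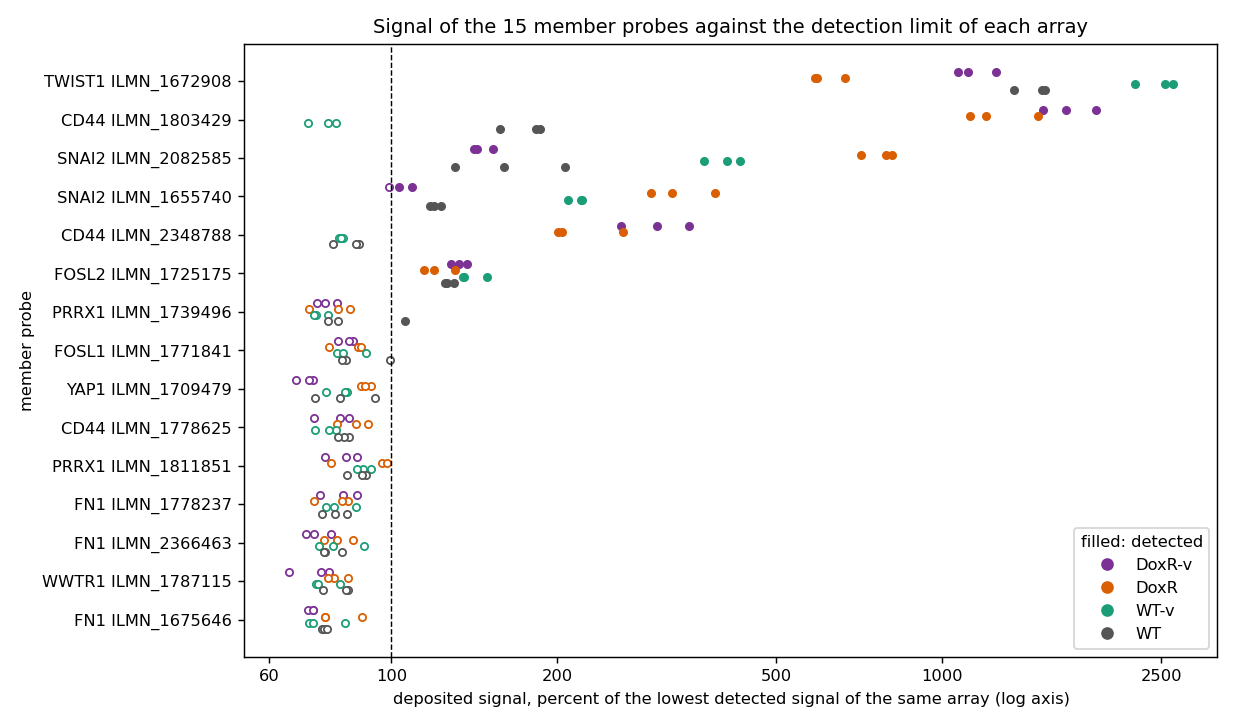
Deposited signal of each of the 15 member probes (rows) as a percentage of the lowest detected signal of the same array (horizontal axis, log scale), for the DoxR-v, DoxR, WT-v and WT arrays; filled points were detected and the dashed line marks 100%. The probes of FN1, FOSL1, YAP1 and WWTR1 stay left of the line on all 12 arrays, and the brightest CD44 probe spans 70.6% to 1901%.

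Of the 9 genes, 5 had a probe detected on at least 1 array and were tested, the gene being represented by its brightest tested probe. In DoxR-v vs WT 3 of the 5 were called (CD44 higher, SNAI2 and TWIST1 lower), where 24.4% of all 12093 genes tested were. In DoxR vs WT 3 were called (CD44 and SNAI2 higher, TWIST1 lower), with a background of 33.1%. In WT-v vs WT 2 were called (SNAI2 higher, CD44 lower), with a background of 26.3%. In DoxR-v vs DoxR 2 were called (TWIST1 higher, SNAI2 lower), with a background of 28.2%. Setting the resistant lines against WT-v, 3 were called for DoxR-v (background 24.2%) and 3 for DoxR (background 30.3%), and 2 were called for the interaction (background 42.1%). With 5 genes, these shares carry little weight beside the background. The comparisons share arrays, so the values of a gene in them are not independent.

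Genes that work with these members were then counted from lists of related genes, and each list's share called is given beside the background shares above, 24.4% in DoxR-v, 33.1% in DoxR and 26.3% in WT-v against WT. With 7 to 22 tested genes a list, a difference of a few genes from the background is not a result about the list. Median scaling, given below for some lists, also moved the counts over all 21609 probes tested. Probes called higher than in WT went from 2457 to 6035 in DoxR-v, from 3282 to 4866 in DoxR and from 2850 to 5966 in WT-v. Probes called lower fell in each. A list count that changes under median scaling is thus not a result about the list. Other EMT transcription factors, 8 of them tested, were higher for 1 in DoxR-v (ZEB2, log2 difference 0.74), 2 in DoxR (ZEB2, 1.29, and KLF4, 0.69) and 4 in WT-v (PRRX2, 1.25, ZEB2, 0.94, ZEB1, 0.78, and TCF4, 0.66), all against WT, and lower for 0 in each of these comparisons (0 at an unadjusted p below 0.05 in limma as well). ZEB1 and ZEB2 encode zinc-finger repressors of epithelial genes. The median difference of the list was 0.26, 0.21 and 0.60 for DoxR-v, DoxR and WT-v, against 0.02, 0.01 and 0.03 over all genes. The share called was below the background in DoxR-v (12.5%) and DoxR and above it in WT-v. The interaction was called for 5 of the 8, all negative (62.5%, with a background of 42.1%). ZEB2 had the smallest adjusted p there (-1.49, limma adjusted p = 0.0098). Under median scaling the count in DoxR-v became 4.

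Of 19 tested transcription regulators ascribed to the mesenchymal state of neuroblastoma, 6 were higher and 1 lower in DoxR-v, 7 higher and 1 lower in DoxR, and 7 higher and 2 lower in WT-v, against WT (36.8%, 42.1% and 47.4% called). IFI16, which encodes an interferon-inducible DNA sensor, was not detected in WT and was at least 10.1-fold higher in DoxR-v and at least 15.5-fold higher in DoxR (limma adjusted p = 2.71e-08 and 3.17e-09). SIX4, a homeobox factor gene, rose in all 3 lines (2.71-fold in DoxR-v, 4.67-fold in DoxR and 2.91-fold in WT-v). AEBP1 rose 4.12-fold in DoxR-v and 2.64-fold in WT-v, while TBX18, a T-box factor gene, was at least 2.63-fold higher in DoxR and at least 2.84-fold lower in DoxR-v than in DoxR. The gene called lower than in WT in both resistant lines was ID1, 1.56-fold in DoxR-v and 1.63-fold in DoxR. CREG1 was 1.84-fold lower in WT-v than in WT, but 1.90-fold higher in DoxR. The list's median was 0.44, 0.13 and 0.42, and the count of higher genes in DoxR-v became 12 under median scaling.

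Among 8 tested AP-1 partners and paralogues, the counts were 2 higher and 1 lower in each of DoxR-v, DoxR and WT-v against WT (37.5% called). FOS, the immediate early partner of the Jun proteins, was at least 1.10-fold higher in DoxR-v and at least 2.60-fold higher in DoxR, and it was 2.36-fold lower in DoxR-v than in DoxR (limma adjusted p = 0.00244). The DoxR-v arrays read 5.30 to 5.73 for FOS, near the detection limit, so the bound of 1.10-fold does not set DoxR-v apart from WT. JUNB rose 1.62-fold in DoxR-v, 2.02-fold in DoxR and 1.59-fold in WT-v, and ATF3, a stress-induced partner, fell 1.82-fold in DoxR-v and 1.98-fold in DoxR. The list's medians were -0.02, -0.17 and 0.00.

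YAP1 and WWTR1 themselves were below detection. Of 15 tested Hippo kinases, scaffolds and TEAD factors, 6 were higher and 0 lower in DoxR against WT (7 and 0 at an unadjusted p below 0.05, limma), and the list's median was 0.30. The share called, 40.0%, was close to the background of 33.1%, so it is single genes of the list that are described. TEAD4, the gene of a DNA-binding partner of YAP1, was detected on all DoxR arrays (8.04 to 8.33) and on none of the other lines, at least 6.96-fold higher than in WT (adjusted p = 1.31e-10). AMOT, which encodes a YAP-binding scaffold at cell junctions, was 7.19-fold higher, WWC1 (KIBRA), an upstream activator of the pathway, at least 4.56-fold higher, and STK3 (MST2), a core kinase, 2.33-fold higher.

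The same 4 genes were lower in DoxR-v than in DoxR, TEAD4 at least 7.52-fold, WWC1 at least 4.93-fold, AMOT 5.19-fold and STK3 2.94-fold (limma), and 5 genes of the list in all were called there, each lower (2 higher and 5 lower at an unadjusted p below 0.05). That share, 33.3%, was also close to the background of 28.2%. In DoxR-v against WT, 0 genes of the list were higher and 1 lower (TEAD2, at least 1.23-fold), with 4 higher and 2 lower at an unadjusted p below 0.05, though 5 were higher and 0 lower under median scaling. The shares were 6.67% in DoxR-v and 13.3% in WT-v, which had 2 higher and 0 lower genes (3 and 0 at an unadjusted p below 0.05). Of these, TEAD2 was 5.66-fold higher than in WT (adjusted p = 1.63e-07). The interaction was called negative for 7 of the 15 and positive for 0 (7 and 0 at an unadjusted p below 0.05, limma). That share, 46.7%, was close to the background of 42.1% for the interaction.

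Of 13 tested target genes of YAP and TAZ, 2 were higher in DoxR-v, 6 in DoxR and 3 in WT-v against WT, and 0 were lower in each (1, 0 and 0 at an unadjusted p below 0.05, limma). The shares called were 15.4%, 46.2% and 23.1%, of which those of DoxR-v and WT-v lay below the background. The count for WT-v includes ANKRD1, which neither WT-v nor WT detected on any array. IGFBP3, which encodes an insulin-like growth factor binding protein, was not detected in WT. It lay between 6.70 and 7.38 in DoxR-v, 8.74 and 8.86 in DoxR, and 9.25 and 9.36 in WT-v, so that it was at least 2.90-fold, 10.5-fold and 14.9-fold higher. ANKRD1, a cardiac ankyrin repeat gene much used as a YAP readout, was at least 2.24-fold higher in DoxR than in WT and at least 2.42-fold lower in DoxR-v than in DoxR. MYOF followed it (at least 1.31-fold higher and at least 1.42-fold lower). CCN2, a further target of the list, was not called in DoxR against WT (-0.23, limma adjusted p = 0.494). It was detected on 3 arrays of WT and 1 of DoxR. In DoxR-v vs DoxR 5 of the 13 were lower and 0 higher, with 6 and 0 at an unadjusted p below 0.05. The share called there was 38.5%, beside a background of 28.2%. The list's medians against WT were 0.11, 0.33 and 0.33 for DoxR-v, DoxR and WT-v, and median scaling gave 4, 6 and 6 higher genes.

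Partners of CD44 and receptors of fibronectin formed a list of 13 tested genes. Against WT, 5 were higher and 1 lower in DoxR-v, 6 higher and 2 lower in DoxR, and 3 higher and 2 lower in WT-v (46.2%, 61.5% and 38.5% called). The count for DoxR-v includes HAS2, which neither DoxR-v nor WT detected on any array. MSN, which encodes moesin, a linker of the CD44 tail to actin, was high in both lines given vorinostat. Its log2 level averaged 9.92 ± 0.24 in DoxR-v, 5.79 ± 0.25 in DoxR, 10.69 ± 0.30 in WT-v and 6.47 ± 0.29 in WT (SD, n = 3 each). MSN was 17.5-fold higher in DoxR-v than in DoxR and 18.6-fold higher in WT-v than in WT (limma adjusted p = 5.38e-09 and 1.18e-08), and its interaction was -0.09 (SE 0.28). Thus DoxR had CD44 with little MSN, WT-v had MSN with no detected CD44, and DoxR-v had both. EZR (ezrin), a further gene of the list, was bright in every line. Its log2 level averaged 11.02 in DoxR-v, 11.21 in DoxR, 11.77 in WT-v and 11.77 in WT.

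HAS3, a hyaluronan synthase gene, was not detected in WT or WT-v and was at least 1.36-fold higher in DoxR-v and at least 1.30-fold higher in DoxR than in WT. HAS2, a further synthase gene, was at least 1.44-fold higher in DoxR and at least 1.67-fold higher in WT-v than in WT, and at least 1.56-fold lower in DoxR-v than in DoxR. HMMR, the gene of a second hyaluronan-binding protein, was 1.83-fold higher in DoxR-v, 2.31-fold higher in DoxR and 1.76-fold higher in WT-v. ITGA9, an integrin subunit, was not detected in DoxR and was at least 3.03-fold higher in DoxR-v than in DoxR. The list's medians were 0.28, 0.24 and 0.24, and median scaling gave 6 higher and 0 lower genes in WT-v.

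Matrix and structural genes of mesenchymal cells moved in both directions. Of 22 tested, 5 were higher and 6 lower in DoxR-v, 8 higher and 5 lower in DoxR, and 10 higher and 3 lower in WT-v, against WT, and between DoxR-v and DoxR 7 were higher and 8 lower. The share called against WT was 59.1% in DoxR and in WT-v. In DoxR-v against WT the share was lower than that, but above the background of 24.4%. Between DoxR-v and DoxR the share was 68.2%, beside a background of 28.2%. The count for WT-v includes LOX and THBS1, which neither WT-v nor WT detected and which are named after their values were seen. VIM, which encodes vimentin, rose in all 3 lines, 4.65-fold in DoxR-v, 16.5-fold in DoxR and 6.12-fold in WT-v. COL3A1, a fibrillar collagen gene, was at least 3.79-fold higher in DoxR and at least 4.10-fold lower in DoxR-v than in DoxR. LUM (lumican) went the other way, 25.8-fold higher in DoxR-v than in DoxR, and CALD1 (caldesmon) was 16.3-fold lower there (limma adjusted p = 2.07e-09 and 1.64e-09). PDGFRB, a receptor of stromal cells, was 10.1-fold lower in DoxR than in WT. The list's medians were -0.07, 0.25 and 0.53.

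Of 7 tested TGF-beta ligands, receptors and SMADs, 3 were higher and 1 lower in DoxR-v, 4 higher and 0 lower in DoxR, and 2 higher and 0 lower in WT-v against WT (57.1%, 57.1% and 28.6% called, and 1 lower in DoxR and 1 in WT-v at an unadjusted p below 0.05, limma). TGFBR2, the ligand-binding receptor, was at least 4.69-fold higher in DoxR-v, at least 2.10-fold higher in DoxR and at least 1.23-fold higher in WT-v. TGFB3 rose 2.31-fold in DoxR-v and 3.68-fold in DoxR, and SMAD3, which carries the signal to the nucleus, 2.04-fold in DoxR-v, 2.36-fold in DoxR and 2.05-fold in WT-v. SMAD2 was the gene called lower, 1.72-fold in DoxR-v against WT (limma adjusted p = 0.0024). SMAD7 was 2.25-fold higher in DoxR than in WT and 2.09-fold lower in DoxR-v than in DoxR. The list's medians were 0.17, 1.17 and 0.51, and median scaling gave 5 higher genes in WT-v.

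**Figure D4:**
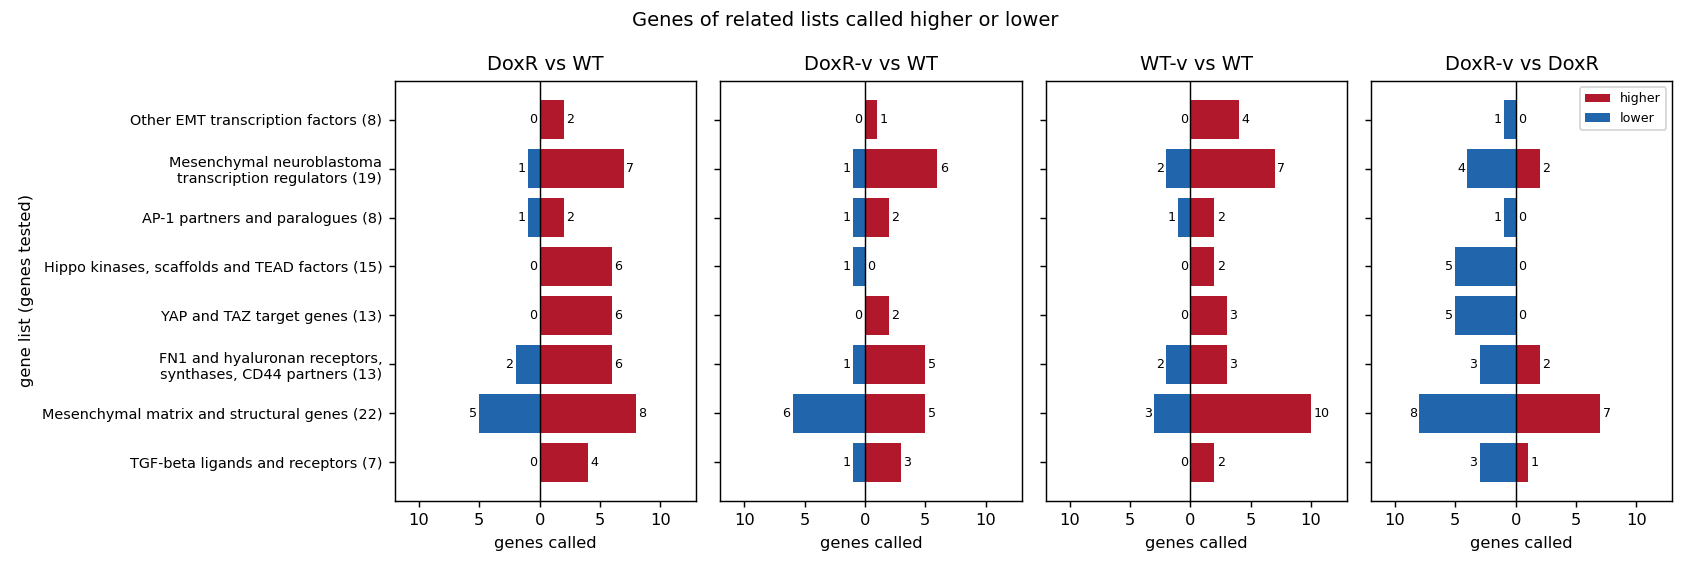
Number of genes called higher (red, right) and lower (blue, left) in each related list (rows, number of genes tested in brackets) for DoxR, DoxR-v and WT-v each against WT and for DoxR-v vs DoxR (panels). The Hippo and the YAP and TAZ target lists each had 6 genes higher in DoxR vs WT and 5 lower in DoxR-v vs DoxR. In DoxR vs WT these are 40.0% and 46.2% of the genes tested (33.1% over all genes). In DoxR-v vs DoxR they are 33.3% and 38.5% (28.2% over all genes). Of the calls plotted, 4 set undetected groups against each other (HAS2 in DoxR-v, and ANKRD1, LOX and THBS1 in WT-v, against WT).

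The genes whose levels ran most like those of each member were picked by Pearson's r over the 12 arrays, as a description with no test, since the 12 arrays fall into 4 groups. CMBL (r of 0.997), RFTN1 (0.988) and GSTO2 (0.986) ran most like CD44. CMBL, which encodes a hydrolase, averaged 10.18 in DoxR-v, 10.09 in DoxR, 7.83 in WT-v and 8.93 in WT. SPRY1 (0.989), TRIB1 (0.983) and ARID5B (0.981) ran most like SNAI2, and SPRY1, which encodes a feedback inhibitor of receptor tyrosine kinase signalling, averaged 9.46 in DoxR and 7.47 in WT-v while no DoxR-v array detected it. RAB3IL1 (0.982), NDN (0.981) and ST6GAL1 (0.980) ran most like TWIST1, and NDN, which encodes the neuronal growth suppressor necdin, averaged 6.59 in DoxR-v, 4.46 in DoxR, 8.94 in WT-v and 8.19 in WT.

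**Figure D5:**
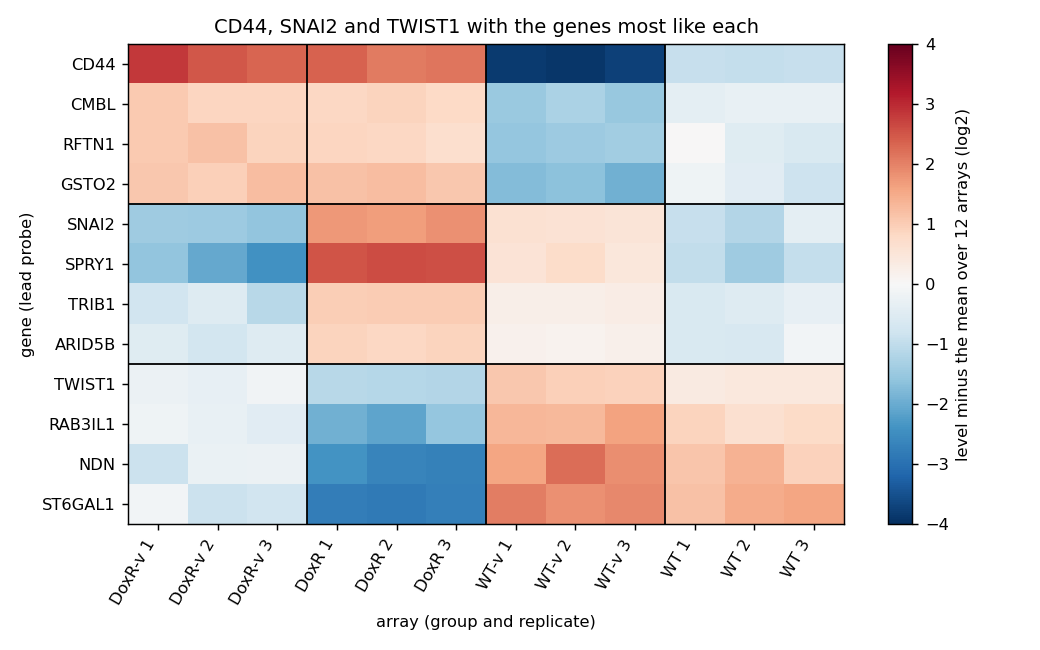
Level minus the mean over 12 arrays (log2, colour) of CD44, SNAI2 and TWIST1, each above the 3 genes most like it (rows), on the DoxR-v, DoxR, WT-v and WT arrays (columns). The CD44 block is high in both resistant groups, the SNAI2 block in DoxR, and the TWIST1 block in the parental groups.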

How the data were processed

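RNA of the 12 samples was hybridised to Illumina bead arrays, 1 array per sample. The main input was the intensity of each probe before normalization, deposited by the authors with a detection p-value for each intensity, which sets the probe against the negative controls of its array. The normalized intensity deposited by the authors, from lumi 2.13.3 run in R 3.0.1 according to the submitters' processing notes, was used as an alternative. Here, the unnormalized values were background-corrected by the normal-exponential model (neqc, offset 16), quantile normalized and log2-transformed in limma 3.58.1 with R 4.3.3. Fold changes of probes near the detection limit depend on that background correction.

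The 21609 probes with a detection p below 0.01 on 1 or more arrays entered a limma model of the 4 group means over all 12 arrays, with eBayes and Benjamini-Hochberg adjustment over these probes. Calls required an adjusted p below 0.1 together with a change of more than 1.5-fold, as in the study's methods. The fitting code was tested on simulated data. The tested probe that was brightest on average stood for its gene. The platform annotation gave a single symbol for 30113 of the 47323 probes; it left 17202 unnamed and tied 8 to more than 1 gene. The number of arrays limits the precision. All 9 members and their 15 probes are described. Of each related list, the called genes with the smallest adjusted p (at most 4 per comparison) could be named, and for each member called in a pairwise comparison the 3 genes most like it. The members and lists were chosen with earlier results of these data known. Alternatives changed the background correction, scaling, filter, threshold, arrays fitted, array weights and probe choice, added a replicate block, or left out each array in turn. A slide block was not run, because the headers give no slides.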

Additional observations from a re-analysis of the deposited data

Results flagged for a closer look

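The vorinostat difference was itself different between resistant and parental cells for CD44 and SNAI2, by the interaction term of the limma model. For the brightest CD44 probe, ILMN_1803429, DoxR-v minus DoxR less WT-v minus WT was 3.25 on the log2 scale (adjusted p = 9.22e-08). For the second CD44 probe, ILMN_2348788, it was 0.60 (limma adjusted p = 0.0578), and this call was lost under 10 alternatives, with values of 0.29 to 0.60. Both parental groups stood below detection on that probe, and WT-v did on the brightest.

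For SNAI2 it was -4.62 on ILMN_2082585 (limma adjusted p = 1.54e-08) and -3.87 on ILMN_1655740 (adjusted p = 8.82e-09), and every array of DoxR-v lay below every DoxR array while every WT-v array lay above every WT array. Both calls held under all alternatives run.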

How the results depend on the processing

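No difference of a member changed sign under any alternative, among those past the thresholds. Of the member differences recomputed, 1062 kept their side of the thresholds, 24 lost a call and 13 gained one. The lost calls were those of SNAI2 in DoxR-v vs WT on both probes, of the dimmer SNAI2 probe under the authors' normalized values in WT-v vs WT (0.39), DoxR-v vs WT-v (-0.57) and DoxR vs WT-v (0.48), of TWIST1 in DoxR-v vs WT, and of the second CD44 probe in the interaction. In DoxR-v vs WT, 1 member gene was called under median scaling, against 3, while the calls over all 21609 probes rose from 4821 to 6919. In WT-v vs WT, 4 were called with array weights, against 2, and 2 to 4 when arrays were left out (4 without WT replicate 2 and 4 without WT replicate 3, where TWIST1 and PRRX1 passed). The share called over all genes is not given for these settings. With 5 genes tested, such counts are not a result about the members as a set.

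Counts over all probes fell with no background correction and with the authors' normalized values, but rose under median scaling. With no background correction, 2179 probes were called in DoxR-v vs WT (4821 in the main analysis), 3281 in DoxR vs WT (6415), 2472 in WT-v vs WT (5352), 2860 in DoxR-v vs DoxR (5383), 2219 in DoxR-v vs WT-v (4813), 3161 in DoxR vs WT-v (5898) and 5040 in the interaction (8282). The authors' normalized values gave 1323, 2072, 1507, 1838, 1372, 2048 and 3307 in the same order. An offset of 50 gave 3015 in DoxR-v vs WT, 3381 in WT-v vs WT and 3047 in DoxR-v vs WT-v. Median scaling gave 6919 in DoxR-v vs WT, 6655 in DoxR vs WT, 7039 in WT-v vs WT and 5754 in DoxR-v vs DoxR. It gave 4995 in DoxR-v vs WT-v, 6299 in DoxR vs WT-v and 8622 in the interaction. Under median scaling the median of all probes was 0.26 in DoxR-v vs WT, 0.13 in DoxR vs WT, 0.24 in WT-v vs WT, 0.10 in DoxR-v vs DoxR, -0.11 in DoxR vs WT-v and -0.14 in the interaction, against -0.03 to 0.02 in the main analysis. The share of calls that were higher then went to 87.2% (51.0% in the main analysis), 73.1% (51.2%), 84.8% (53.3%), 65.8% (50.6%), 37.3% (49.0%) and 35.1% (48.0%). The cause was not tested.

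No pairing of the arrays by replicate number was seen, although with 3 arrays a group a weak shared effect could be missed. Of 18 same-numbered pairs of deviations from the group means, 1 had a correlation over 0.1, and 2 of 12 arrays correlated best with an array of their own number. With the replicate block, 3 member genes were called in DoxR-v vs WT, 3 in DoxR vs WT, 2 in WT-v vs WT and 2 in DoxR-v vs DoxR, and 6411 probes in DoxR vs WT, and no member call changed. Of the 15 member probes, 8 lay below the detection limit throughout and give only an upper limit.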
